A study of Homo sapiens with 4 samples.

Results

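The 50 genes described here carry out or regulate fatty acid synthesis, elongation and desaturation, the assembly and breakdown of glycerolipids, and fatty acid oxidation. They were chosen by gene symbol, and all 50 were found among the 19626 genes of the deposited tables. Their transcripts were measured by RNA-seq in ES-2 cells, an established human ovarian clear cell carcinoma line that carries an endogenous YAP1-MAML2 (YM) fusion. Cells were transduced with pLKO.1 lentivirus carrying a nontargeting control shRNA (shCtl, 2 libraries) or with the same vector carrying shM2-3 (2 libraries), whose target lies in the part of MAML2 that the fusion retains. RNA was taken 96 h after the first infection according to the sample labels (the study's methods give a shorter time), and the libraries of each group are labelled biological replicates. All cells were therefore of a single line and carried a lentiviral shRNA, and the depleted group rests on a single shRNA. Loss of the fusion, loss of MAML2 and any other effect of this shRNA cannot be told apart in these libraries. In bulk RNA, fewer cells of a kind and less RNA per cell cannot be told apart either.

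Cells build fatty acids from citrate-derived acetyl-CoA, which ACLY releases, ACACA carboxylates to malonyl-CoA and FASN condenses into palmitate. Elongases and desaturases then lengthen the chain and add double bonds, and acyl-CoA synthetases activate fatty acids for use. GPAM, the AGPAT and LPIN enzymes and the DGAT enzymes stack acyl chains onto glycerol to give phospholipid precursors and triglyceride, which is stored in droplets coated by perilipins and released by lipases. For oxidation, CPT1 enzymes pass acyl chains toward the mitochondrial matrix, and malonyl-CoA inhibits them. SREBP1, encoded by SREBF1, is the best-known transcriptional activator of the synthetic genes, and the PPAR receptors activate many genes of oxidation and storage.

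The estimated counts summed to between 20051083 and 23978660 per library. MAML2, the targeted gene, had 1436 and 1402 counts in control cells and 634 and 553 after knockdown, with a log2 change of -1.40 (standard error, SE, 0.0688, adjusted p = 5.18e-10, edgeR's quasi-likelihood test). Its RPKM (reads scaled for the length of the transcript and the size of the library) in shM2-3 was 36.2% of control. The fusion retains part of MAML2, so these counts can hold reads of both transcripts and do not show how far each fell. The epithelial keratin genes KRT7, KRT8 and KRT18 were expressed, with RPKM from 29.1 to 299 over the 4 libraries. The 6 epithelial markers summed to 637 in each control library and to 312.5 and 315.9 after knockdown. The other epithelial markers, KRT19, EPCAM and CDH1, all stayed under an RPKM of 1. So did NAPSA, PAX8 and WT1, which were listed as markers of clear cell ovarian cancer. The 4 listed adipocyte markers (PLIN1, LPL, FABP4 and CIDEC) summed to between 0.00979 and 0.206 RPKM per library, and the 2 listed hepatocyte markers summed to at most 0.112. Of the 6 fibroblast markers, 1 (PDGFRB) passed an RPKM of 1, and the list summed to 0.910 and 1.10 in shCtl against 1.72 and 1.66 in shM2-3. The 5 listed leukocyte markers summed to 58.3 and 57.5 in shCtl and 41.1 and 40.02 in shM2-3, most of it CD68. PTPRC and CD3E were at no more than 0.0257 in any library. CD14 differed in the other direction, at 0.0777 and 0.102 RPKM in shCtl and 0.890 and 0.866 in shM2-3. LYZ was at 0.945 and 0.423 in shCtl and 2.34 and 0.129 in shM2-3, and did not pass the test. The 3 endothelial markers summed to 9.21 and 10.3 against 5.49 and 4.95, most of it CDH5, which fell, and VWF was at no more than 0.0855. PECAM1, the other of these, went the opposite way, from 0.0376 and 0.0308 RPKM to 1.31 and 0.922, and was called higher, having passed the filter through shM2-3 replicate 1 alone. The mesenchymal list (VIM, FN1 and CDH2) summed to 3087 and 3184 in shCtl and to 5288 and 5278 in shM2-3, where FN1 was higher and VIM lower than in control. The part of these markers in the results below was not tested.

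The members that fell most were SCD and FASN, the main enzymes of desaturation and fatty acid synthesis. Among genes of other steps, CPT1A, ACSL5, GPAM, AGPAT4 and PLIN2 were higher in shM2-3 cells by 2-fold or more. Other genes of the same steps differed in direction. CPT2 and ACADM rose by less than 2-fold. ACSL1 was lower, PLIN3 had a log2 fold change of -0.05, and 3 of the 8 tested genes of glycerolipid assembly were lower. Of the 50 members, 44 had an RPKM above 1 in at least 1 library and were tested together with all other such genes, 12157 in total. A member is called when its adjusted p is 0.05 or less (Benjamini-Hochberg adjusted, from edgeR's quasi-likelihood fit) and its fold change is 2 or more. By this rule 6 members were called lower (SCD, FASN, MGLL, FABP5, ACSL1 and FADS3) and 5 higher (CPT1A, ACSL5, GPAM, PLIN2 and AGPAT4). These 11 are 25.0% of the members tested, against 18.2% of all genes tested, with 8.93% called lower and 9.24% called higher. They include CPT1A, which passed the RPKM filter only through its level in shM2-3, the group where it is high. At an adjusted p of 0.05 or less and any fold change, 24 members were lower and 12 higher, while 8 did not pass. That is 81.8% of the members against 72.7% of all genes, so that most genes of any kind passed this limit. The lower members were 54.5% of those tested, against 36.4% of all genes, and the higher members were 27.3%, against 36.3%. The median log2 fold change was -0.23 over the 44 members and -0.00 over all genes tested.

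**Figure D1:**
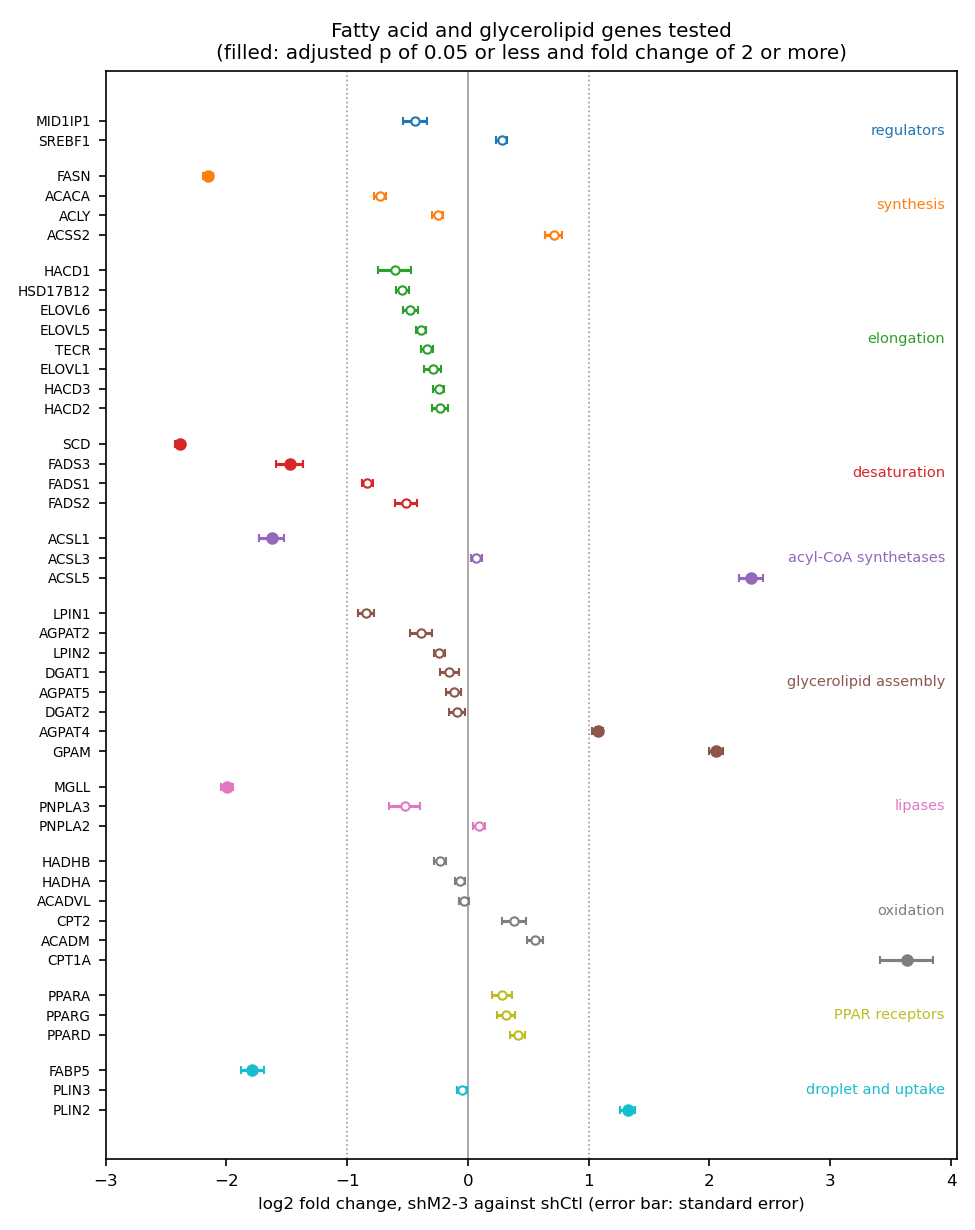
Log2 fold change of the 44 members tested (x axis, shM2-3 against shCtl, with standard error bars), grouped by role on the y axis, with filled points for called members and dotted lines at a fold change of 2. All desaturation and elongation genes lie left of 0, and all PPAR genes lie right of it. CPT1A, which passed the RPKM filter only through its level in shM2-3, stands farthest right at 3.63.

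SREBF1 (chromosome 17 of hg38, 17810399 to 17837002, minus strand) encodes the activator SREBP1, and its transcript did not fall with FASN and SCD. It had an RPKM of 15.98 and 17.04 in shCtl and 19.3 and 18.9 in shM2-3. Both shM2-3 libraries lay above both shCtl libraries, by a small margin, with a log2 change of 0.28 (SE 0.0491, adjusted p = 0.000175, edgeR's quasi-likelihood test). SREBF1 shares 556 exonic bases with RAI1 on the opposite strand in GENCODE release 44, and these libraries do not separate strands. MID1IP1, whose product promotes polymerization of acetyl-CoA carboxylase, had an RPKM of 6.44 and 6.84 in shCtl and 4.36 and 5.02 in shM2-3, and fell by 0.44 on the log2 scale. The groups did not overlap, and MID1IP1 also shares exonic bases with its antisense gene MID1IP1-AS1.

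Promoter letters were read for the members to show how many of them hold a sterol regulatory element, the site that SREBP proteins bind. Promoters (250 bases before to 50 after the RefSeq start, build GRCh38.p14) were at hand for 41 members, and not for FASN, HSD17B12, AGPAT5, LPIN3, DGAT1, DGAT2, MGLL, PNPLA3 and FABP5. The element, searched as TCACNCCAC on both strands, was present in 2 of the 41 (4.88%), in 1.15% of all 27305 promoters of that length and in 1.08% of those of tested genes. The 2 were MID1IP1, which fell by less than 2-fold, and PNPLA2, which did not pass the test. Of the called members with a promoter at hand, 0 of 3 lower (SCD among them) and 0 of 5 higher held the element. This says only that these exact letters are not in those windows, and FASN, MGLL and FABP5 had no window to search. Whether SREBP proteins bind these genes was not tested. The E-box CACGTG was present in 3 members (7.32%, against 7.43% of all promoters and 10.2% of those of tested genes), namely PLIN2, which rose, ELOVL5, which fell, and PPARGC1A, which was not tested. The TEAD site GGAATG was present in 3 members (7.32%, against 14% of all promoters and 10.9% of those of tested genes), namely ACSL3, ACSL5 and CD36. CCAAT was found in 16 members (39%, against 35.7% of all promoters and 37.3% of those of tested genes) and GGGCGG in 30 (73.2%, against 44.6% of all promoters and 71.1% of those of tested genes). The spaced direct repeat DR1, bound by PPAR and RXR pairs, was found in 0 of the 41 windows and in 0.308% of all promoters (0.178% of those of tested genes), which says only that these letters are not in those windows. The stretches below are 30 bases each, written 5′ to 3′ on the strand of the gene and lying wholly before the RefSeq start, with the match in capitals. They are shown as the E-boxes of the members that hold one, together with both CCAAT boxes of SCD, the member that fell most. The RefSeq start used for PPARGC1A is a distant one that lies outside the span GENCODE release 44 gives for the gene, and that of PLIN2 lies inside its span.
PLIN2, E-box, chr9:19127544-19127573, minus strand: gctgccgcgggtCACGTGctgcggaggctt
ELOVL5, E-box, chr6:53349144-53349173, minus strand: atttcccagagaCACGTGgaaccgaggggc
PPARGC1A, E-box, chr4:24473011-24473040, minus strand: agtcagcgcgccCACGTGacggccccggct
SCD, CCAAT box, chr10:100346992-100347021, plus strand: gattgcgccgagCCAATggcaacggcagga
SCD, CCAAT box, chr10:100347035-100347064, plus strand: aattcccttcggCCAATgacgagccggagt

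In the synthesis group, 3 of the 4 tested genes were lower and 1 higher at the adjusted p limit, against 36.4% and 36.3% of all genes tested. FASN was the one called. FASN (chromosome 17, 82078338 to 82098294, minus strand) encodes the multifunctional enzyme that makes palmitate. Its counts were 31427 and 32845 in control cells and 8573 and 7407 after knockdown, or an RPKM of 158.5 and 162.9 against 35.4 and 33.7. Both shM2-3 libraries lay far below both shCtl libraries, and the mean RPKM in shM2-3 was 21.5% of control. The log2 fold change was -2.15 (SE 0.0383, adjusted p = 1.94e-14, edgeR's quasi-likelihood test), which ranked 216 from the lowest of the 12157 genes tested. ACACA, the acetyl-CoA carboxylase that supplies malonyl-CoA for synthesis, fell by 0.73 on the log2 scale, from an RPKM of 10.05 and 9.53 to 5.75 and 5.56. ACLY, the ATP citrate lyase, fell by 0.25, from 65.0 and 63.5 to 50.2 and 52.9. ACSS2, which makes acetyl-CoA from acetate, moved the other way, from an RPKM of 10.3 and 9.45 to 15.4 in both shM2-3 libraries, a log2 change of 0.71 (SE 0.0696). The adjusted p of these 3 genes lay between 2.03e-08 and 0.000161 in the same edgeR test, and their groups did not overlap.

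All 4 desaturase members were lower at the adjusted p limit (median log2 fold change -1.15), as were 36.4% of all genes tested. Of the 4, 2 were called lower, against 8.93% of all genes tested. SCD (chromosome 10, 100347233 to 100364826, plus strand) encodes stearoyl-CoA desaturase, which turns saturated into monounsaturated acyl-CoA. Its RPKM was 264 and 269 in shCtl and 48.3 and 49.1 in shM2-3, with 32420 and 33597 counts against 7259 and 6679. The shM2-3 mean was 18.3% of control, far outside the spread of either pair, and the log2 change of -2.39 (SE 0.0376, adjusted p = 7.04e-15, edgeR's quasi-likelihood test) was the lowest of the members. SCD5, the other acyl-CoA desaturase, was a minor transcript in both groups, at 2.72 and 2.83 RPKM in shCtl and 4.32 and 3.61 in shM2-3. SCD thus made up 99.0% of the summed RPKM of the 2 genes in each shCtl library and 91.8% and 93.1% in shM2-3.

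FADS1, FADS2 and FADS3 lie side by side on chromosome 11. FADS1 and FADS2 introduce double bonds into polyunsaturated fatty acids, and FADS3 acts on sphingoid bases. FADS3 had an RPKM of 13.8 in each shCtl library against 5.18 and 4.27 in shM2-3, and was called with a log2 change of -1.48 (SE 0.112). FADS1 fell by 0.83, from an RPKM of 38.5 and 37.6 to 20.2 and 20.7. FADS2 fell by 0.51, from 7.03 and 7.54 to 4.92 and 4.84. In each of these genes both shM2-3 libraries lay below both shCtl libraries, and FADS1 remained the most abundant of the family, with 63.8% to 69.4% of its summed RPKM in every library. FADS1 and FADS2 share 490 exonic bases on opposite strands, and FADS2 also overlaps FEN1, so part of their counts could be exchanged.

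**Figure D2:**
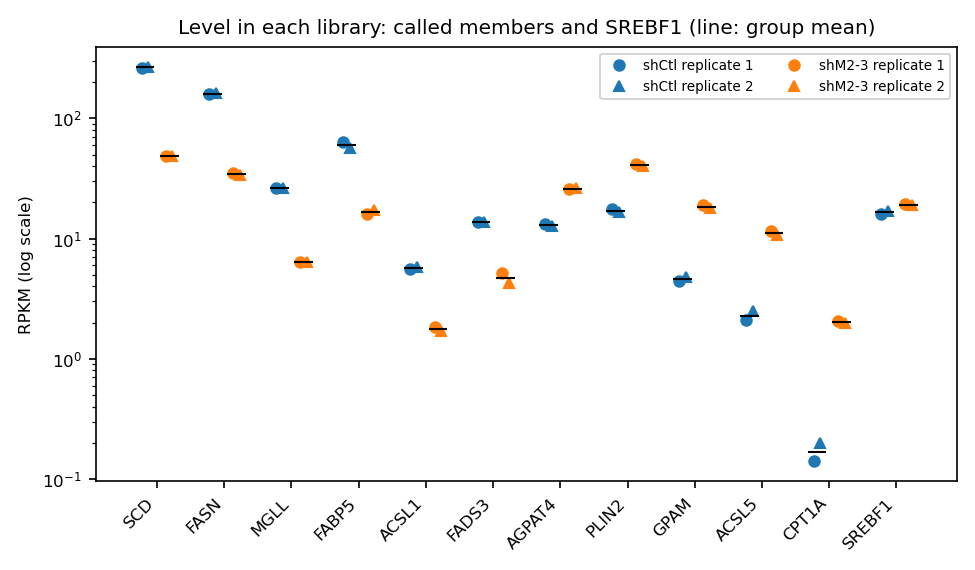
RPKM in each library (log y axis) of the 11 called members, ordered by log2 fold change, and of SREBF1, with circles for replicate 1, triangles for replicate 2 and a line at each group mean. The shCtl and shM2-3 libraries do not overlap for any gene shown. The 11 called members were chosen by their change, which leaves little room for overlap, so their separation adds no support. SCD and FASN start as the highest of these transcripts, and CPT1A starts as the lowest at 0.140 and 0.199 RPKM.

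FASN and SCD together took 0.318% and 0.325% of all counts in the shCtl libraries and 0.0660% and 0.0646% in the shM2-3 libraries. They made up 44.2% and 44.6% of the counts of all 50 members in shCtl, and 15.05% and 14.81% in shM2-3. The members as a whole took 0.721% and 0.729% of counts in shCtl and 0.439% and 0.436% in shM2-3. Counts grow with transcript length as well as with abundance, so these are shares of reads.

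The microsomal elongation machinery was lower throughout, by small amounts. Of its 9 genes, 8 were tested and all 8 were lower at the adjusted p limit, as were 36.4% of all genes tested. Their log2 fold changes lay between -0.61 (HACD1) and -0.23 (HACD2) with a median of -0.36, and none reached a fold change of 2. TECR, the reductase of the last step of the cycle and the most abundant of the group, had an RPKM of 79.4 and 84.8 in shCtl and 61.5 and 62.8 in shM2-3, a log2 change of -0.34 (SE 0.0494). TECR shares up to 525 exonic bases with a neighbouring gene, DNAJB1 among them. HSD17B12, the reductase of the ketoacyl step, fell by 0.54, from 35.2 and 34.4 to 23.1 and 22.4. Among the condensing enzymes, ELOVL6, which extends palmitate, fell by 0.48, ELOVL5, which extends polyunsaturated chains, fell by 0.39, and ELOVL1, which makes very long saturated chains, fell by 0.29. The dehydratase HACD3 fell by 0.24. HACD2 was the least certain, with an adjusted p of 0.0567 without shCtl replicate 2 and 0.0612 without shM2-3 replicate 1 (edgeR's quasi-likelihood test in both).

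The long-chain acyl-CoA synthetases changed in opposite directions. ACSL1 had an RPKM of 5.57 and 5.82 in shCtl and 1.83 and 1.69 in shM2-3, a log2 change of -1.62 (SE 0.102). ACSL5 (chromosome 10, 112374116 to 112428379, plus strand) had 185 and 224 counts in control cells and 1248 and 1046 after knockdown, and its RPKM rose from 2.09 and 2.48 to 11.5 and 10.7. Neither gene's groups overlapped, and the log2 fold change of ACSL5 was 2.34 (SE 0.0986, adjusted p = 1.03e-10, edgeR's quasi-likelihood test). ACSL5 shares 144 exonic bases with ZDHHC6 on the opposite strand. ACSL3, an enzyme of the endoplasmic reticulum and lipid droplets, was at 23.6 and 24.1 RPKM in shCtl and 24.0 and 23.8 in shM2-3, where the groups overlap. Its log2 fold change was 0.07 (SE 0.0428, adjusted p = 0.153 in the same edgeR test). With ACSL4, which prefers arachidonate and is not a member, the order of the family in shCtl was ACSL4 and ACSL3 at nearly the same level, then ACSL1, then ACSL5. In shM2-3 it was ACSL3, ACSL4 at 14.4 and 14.2 RPKM, ACSL5 and ACSL1. ACSL5 rose from 3.64% and 4.39% to 22.2% and 21.2% of the summed RPKM of the family, and ACSL6 was near 0 in every library.

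Glycerolipid assembly showed 2 called rises against several small falls. Of 9 genes, 8 were tested, 2 were called higher, 3 were lower by less than 2-fold and 3 did not pass. Of all genes tested, 9.24% were called higher and 36.4% were lower at any fold change. GPAM (chromosome 10, 112149865 to 112215377, minus strand) encodes the mitochondrial glycerol-phosphate acyltransferase, which adds the first acyl chain to glycerol phosphate. It had 669 and 722 counts in control cells and 3453 and 2944 after knockdown, or an RPKM of 4.48 and 4.76 against 18.9 and 17.8. Both shM2-3 libraries lay far above both shCtl libraries, with a log2 change of 2.06 (SE 0.0577, adjusted p = 1.47e-12, edgeR's quasi-likelihood test). AGPAT4, an acyltransferase that adds a chain to lysophosphatidic acid, had an RPKM of 13.3 and 12.7 in shCtl and 25.8 and 26.4 in shM2-3, a log2 change of 1.07 (SE 0.0453). AGPAT4 lies close to the limit, and on the log2(RPKM + 1) scale its change of 0.96 was below it. AGPAT2, of the same activity, fell by 0.39, from an RPKM of 19.0 and 19.4 to 13.0 and 15.1.

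The phosphatidate phosphatases LPIN1 and LPIN2, which make diacylglycerol, fell by 0.84 and by 0.24. LPIN1 went from an RPKM of 8.58 and 8.17 to 4.49 and 4.42, and LPIN2, the more abundant lipin in all libraries, from 20.7 and 21.4 to 16.8 and 17.4. The enzymes of the final step to triglyceride did not pass the test. DGAT2 had an RPKM of 20.7 and 21.5 in shCtl and 19.5 and 18.3 in shM2-3, with a log2 change of -0.09 (SE 0.0627, adjusted p = 0.209, edgeR's quasi-likelihood test). DGAT1 was at -0.16 (SE 0.0785), with an adjusted p of 0.0906 that became 0.0437 without shCtl replicate 1, and AGPAT5 at -0.12 (SE 0.0635). Within the glycerol-phosphate acyltransferase family, GPAM took 25.7% and 25.6% of the summed RPKM in shCtl and 42.0% and 40.3% in shM2-3. GPAT4, the most abundant of the family in every library, went from 12.5 and 13.4 RPKM to 21.6 and 21.9, and GPAT3 from 0.465 and 0.443 to 4.51 and 4.52. The summed RPKM of the family was 17.5 and 18.6 in shCtl and 45.03 and 44.22 in shM2-3.

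**Figure D3:**
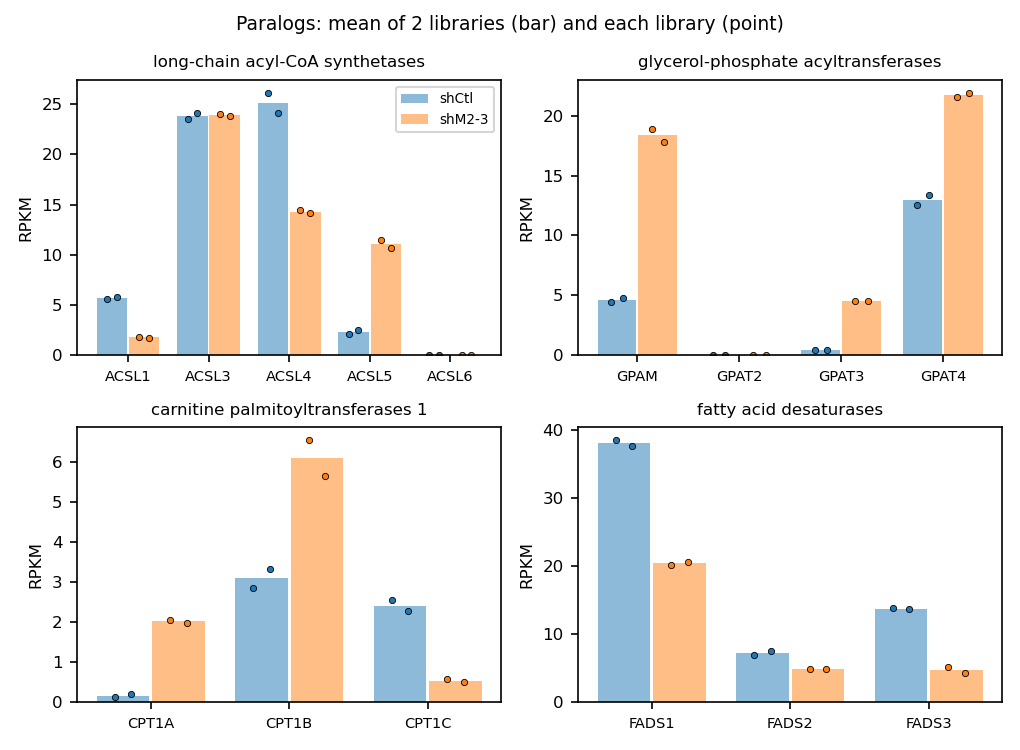
RPKM of the genes of 4 enzyme families, with bars for the mean of the 2 libraries of a group (shCtl blue, shM2-3 orange) and points for the libraries. ACSL1 and ACSL4 are lower and ACSL5 higher in shM2-3, GPAM, GPAT3 and GPAT4 are all higher, CPT1A and CPT1B are higher and CPT1C lower, and the 3 FADS genes are all lower.

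Among the lipases, MGLL was called lower. MGLL (chromosome 3, 127689062 to 128052190, minus strand) encodes monoacylglycerol lipase, which frees the last fatty acid from glycerol and degrades the endocannabinoid 2-arachidonoylglycerol. It had an RPKM of 26.5 in each shCtl library against 6.37 and 6.33 in shM2-3, and the shM2-3 mean was 24.0% of control. The replicates were nearly identical, and the log2 fold change was -1.99 (SE 0.0522, adjusted p = 7.01e-13, edgeR's quasi-likelihood test). PNPLA3 fell by 0.52, from an RPKM of 4.65 and 5.28 to 3.51 and 3.08. PNPLA2, the main triglyceride lipase, had an RPKM of 37.4 and 41.5 in shCtl and 40.3 and 39.99 in shM2-3. The PNPLA2 groups overlapped, with a log2 change of 0.09 (SE 0.0527, adjusted p = 0.129 in the same edgeR test). Without shCtl replicate 1 or the shM2-3 libraries in turn PNPLA2 stayed short of the limit, and without shCtl replicate 2 it passed at 0.17 (adjusted p = 0.0201).

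The droplet and transport genes split. PLIN2 (chromosome 9, 19108375 to 19149290, minus strand), the perilipin found on droplets of most cells, rose from an RPKM of 17.6 and 16.6 in shCtl to 41.8 and 39.96 in shM2-3, a log2 change of 1.32 (SE 0.0593, adjusted p = 2.01e-10, edgeR's quasi-likelihood test). PLIN3, which moves to droplets from the cytosol, was more abundant, at 80.9 and 82.8 RPKM in shCtl and 74.1 and 77.1 in shM2-3. Its log2 fold change was -0.05 (SE 0.0436), and it did not pass. FABP5, a cytosolic fatty acid binding protein, fell from an RPKM of 63.7 and 57.0 to 16.1 and 17.4, a log2 change of -1.78 (SE 0.0940, adjusted p = 1.11e-09, edgeR's quasi-likelihood test). The annotation holds 16 pseudogenes named after FABP5, so its counts are uncertain where reads could be shared with copies. On the RPKM scale FABP5 stood above PLIN2 in both shCtl libraries and below it in both shM2-3 libraries.

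Among the 6 members of fatty acid oxidation, CPT1A of the entry step moved most, and the others changed by less than 2-fold or did not pass. CPT1A (chromosome 11, 68754620 to 68844410, minus strand), the liver-type carnitine palmitoyltransferase, had 18 and 26 counts in control cells and 325 and 281 after knockdown. Its RPKM was 0.140 and 0.199 against 2.07 and 1.98, so that a transcript with few reads in control cells was readily counted in both depleted libraries. The log2 fold change was 3.63 (SE 0.221, adjusted p = 4.81e-09, edgeR's quasi-likelihood test), the highest of the members and 81 from the highest of all genes tested. On the log2(RPKM + 1) scale, which shrinks changes of low transcripts, it was 1.37. CPT1A passed the filter only through its level in shM2-3. The other members of its family, named here after their values were seen, were CPT1B, the muscle type, at 2.87 and 3.33 RPKM in shCtl and 6.54 and 5.65 in shM2-3, and CPT1C, the brain type, at 2.55 and 2.28 against 0.576 and 0.514. CPT1B was called higher at 1.04 (SE 0.122) and CPT1C, which passed the filter only through its level in shCtl, was called lower at -2.07 (SE 0.218). CPT1C made up 45.9% and 39.2% of the summed RPKM of the family in shCtl and 6.27% and 6.32% in shM2-3, where CPT1A held 22.5% and 24.3%.

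CPT2, which completes the carnitine shuttle, rose by a small amount, from an RPKM of 6.25 and 7.13 to 7.97 and 8.66, a log2 change of 0.38 (SE 0.0986). ACADM, the medium-chain acyl-CoA dehydrogenase, rose from 12.2 and 11.9 to 16.8 and 17.1, a log2 change of 0.56 (SE 0.0670). ACADM shares up to 1354 exonic bases with the overlapping genes DLSTP1 and RABGGTB. ACADVL, the very long chain dehydrogenase and the most abundant transcript of the group, had an RPKM of 148 and 157 in shCtl and 142 and 143 in shM2-3, and its log2 change of -0.03 (SE 0.0405, adjusted p = 0.511, edgeR's quasi-likelihood test) did not pass. The subunits of the mitochondrial trifunctional protein were HADHA at -0.06 (SE 0.0441), which did not pass, and HADHB, which fell by 0.23 (SE 0.0498).

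All 3 tested PPAR genes rose, each by less than 1.5-fold, and 36.3% of all genes tested were higher at the same adjusted p limit. PPARD, the most abundant, had an RPKM of 10.8 and 10.06 in shCtl and 13.4 and 13.1 in shM2-3, a log2 change of 0.41 (SE 0.0618). PPARG, the regulator of adipocyte differentiation, went from 4.26 and 4.14 to 4.78 and 5.22, a log2 change of 0.32 (SE 0.0766). PPARA, which drives oxidation genes in liver, went from 2.52 and 2.51 to 3.08 and 2.75, a log2 change of 0.28 (SE 0.0810, adjusted p = 0.00689, edgeR's quasi-likelihood test). PPARA is the least certain of them, with an adjusted p of 0.0950 without shM2-3 replicate 1 in that test and of 0.141 with limma on log2(RPKM + 0.1).

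The 6 members under the RPKM limit were low in all 4 libraries. ACACB, the carboxylase of the outer mitochondrial membrane, had 151 and 111 counts in control cells and 67 and 46 after knockdown. ELOVL7 had 66 and 71 counts against 44 and 28. When genes of any level were tested, both were called lower, with log2 fold changes of -1.39 and -1.11. In that fit 1523 genes in all were called lower, against 1086 with the filter. PPARGC1A, a coactivator of PPAR receptors, had 53 and 39 counts in control cells and 98 and 89 after knockdown, a log2 fold change of 0.85 without the filter. LPIN3 had 29 and 18 counts against 35 and 19, and its groups overlapped. LIPE, the hormone-sensitive lipase of adipose tissue, had 1 and 5 counts in control cells and 10 and 14 after knockdown. CD36, a fatty acid uptake receptor of adipocytes and macrophages, had 3 and 0 counts against 4 and 4, too few for any comparison at this depth.

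**Figure D4:**
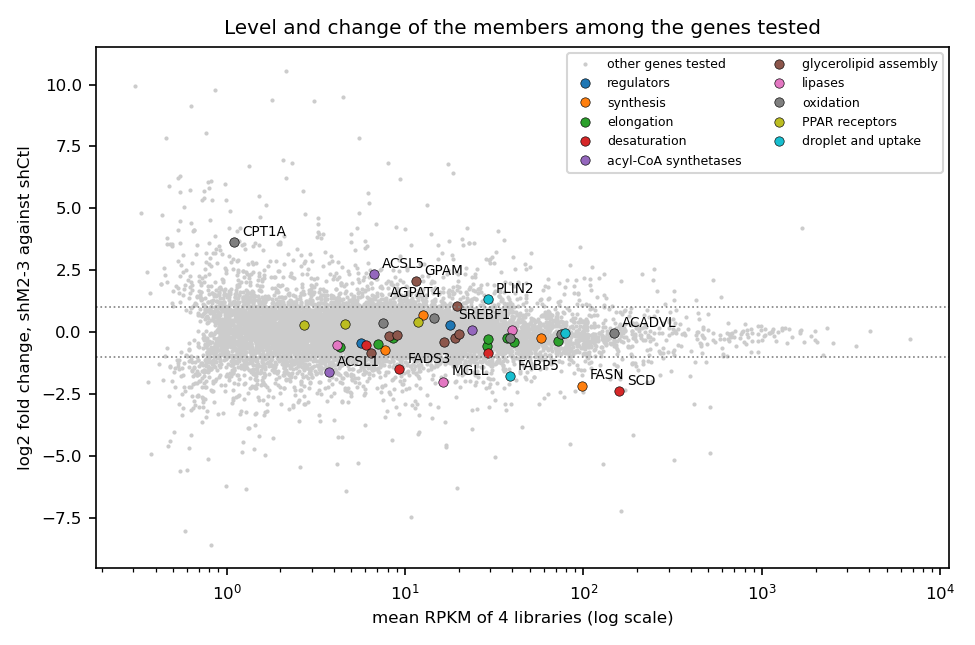
Log2 fold change (y axis, shM2-3 against shCtl) against the mean RPKM of the 4 libraries (log x axis) for all 12157 genes tested in grey and the 44 members in colours of their roles, with dotted lines at a fold change of 2. SCD and FASN stand low at the right, CPT1A stands high at the left, and most members lie between the dotted lines.

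The level of the members in the cells, as a mean over the 4 libraries, ran from 1.10 RPKM for CPT1A to 158 for SCD. The mean RPKM of SCD and FASN lay at percentiles 98.0 and 96.4 of the genes tested, whereas CPT1A lay at percentile 6.12 and GPAM at 64.0.

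Other lipid genes, listed by role from general knowledge, give the wider pathway. Of 161 such genes, 157 were listed and 127 tested, and 17 were called lower and 8 higher, 19.7% in all against 18.2% of all genes. At an adjusted p of 0.05 or less, 60 were lower and 34 higher, which is 47.2% and 26.8% of those tested against 36.4% and 36.3% of all genes, and their median log2 fold change was -0.16. Among regulators, INSIG1, which retains SREBP in the endoplasmic reticulum and is itself a sterol-responsive gene, fell from a mean RPKM of 69.4 to 8.86, a log2 change of -2.90 (SE 0.0505). SREBF2, which encodes SREBP2, fell from a mean RPKM of 27.8 to 13.3, and its fold change of 1.999 missed the limit of 2. All 6 other synthesis genes tested had negative values, of which 5 passed, led by the mitochondrial citrate carrier SLC25A1 at -1.07. ELOVL2, which extends polyunsaturated chains, was called lower at -1.37. The 5 other genes tested under the desaturation role (SCD5, CYB5R3, CYB5B, FAXDC2 and DEGS1) all rose, whereas the 4 members of that role fell. Only SCD5 of the 5 is an acyl-CoA desaturase, so the lists are not alike in function. DEGS1, the dihydroceramide desaturase, was called at 1.26 (SE 0.0529). DBI, the acyl-CoA binding protein, was called lower just past the limit, with a fold change of 2.002.

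In glycerolipid assembly, GPAT3, which passed the filter only through its level in shM2-3, was called higher at 3.38 (SE 0.181), and TAMM41, which makes CDP-diacylglycerol in mitochondria, was called lower at -1.26. Of 35 such genes tested, 16 were lower and 11 higher at the adjusted p limit (45.7% and 31.4%, against 36.4% and 36.3% of all genes). Regulators of PNPLA2 of opposite kinds were lower. ABHD5, its coactivator, was called lower at -1.46 (SE 0.112), and G0S2, its inhibitor, fell from a mean RPKM of 135 to 41.4, a log2 change of -1.64 (SE 0.0618). HILPDA, another inhibitor of PNPLA2 found on droplets, fell from 152 to 28.0, a log2 change of -2.37 (SE 0.0566), and CAV1, the coat protein of caveolae, fell from 339 to 139. Of the 8 tested genes of this droplet and uptake list, 4 were called lower and 4 did not pass, where 8.93% of all genes were called lower. Of 32 further oxidation genes tested, 16 were lower and 9 higher (50% and 28.1%, against 36.4% and 36.3% of all genes). ECI2, an enoyl-CoA isomerase, fell from a mean RPKM of 159 to 34.5, a log2 change of -2.14 (SE 0.0449), and PDK4, the kinase that restrains pyruvate dehydrogenase, rose from 1.52 to 8.00, a log2 change of 2.46 (SE 0.112). RXRA, the partner of PPAR receptors on DNA, was called higher at 1.18 (SE 0.104).

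**Figure D5:**
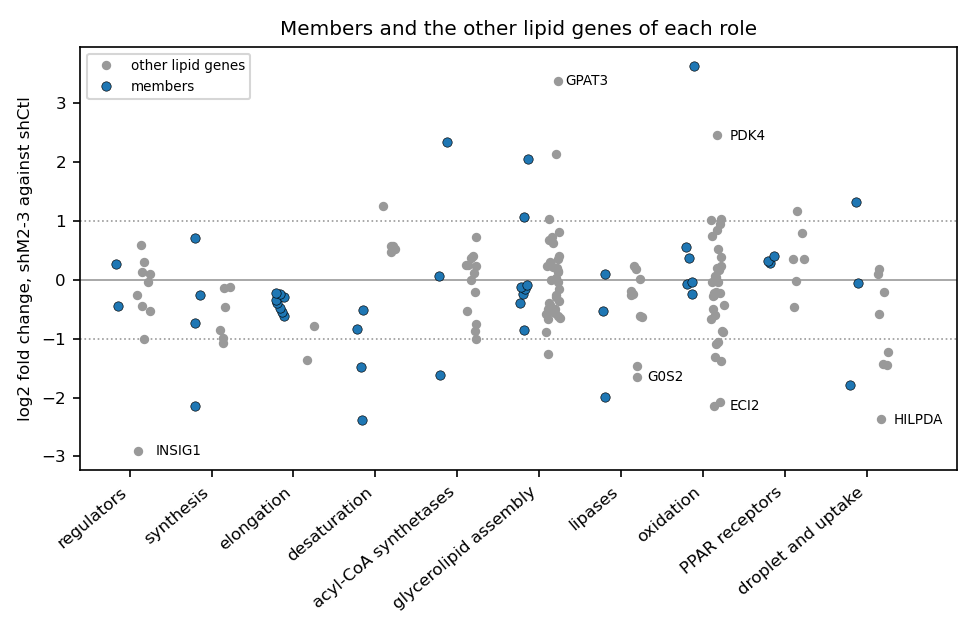
Log2 fold change (y axis, shM2-3 against shCtl) of the 44 members tested (blue) and the 127 other lipid genes tested (grey) by role on the x axis, with dotted lines at a fold change of 2. Members and other genes of synthesis and elongation mostly lie below 0, the other genes listed under desaturation lie above 0, and oxidation genes spread to both sides.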

How the data were processed

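ES-2 RNA was sequenced as non-strand-specific paired 150-base reads. According to the study's methods and the submitters' processing notes, the authors aligned reads to hg38 with HISAT2 2.0.4, removed ambiguous or poorly mapped reads (mapping quality below 10), and counted RefSeq transcripts in Partek 7.18. The authors deposited estimated counts per gene, of which 42.4% to 48.6% per library were whole numbers, and RPKM values for the same 19626 genes. Reads that fit several genes or isoforms can shift such estimates between close copies.

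The estimated counts were rounded to whole numbers, since the design had allowed for estimates. The 12157 genes whose RPKM passed 1 in any library entered edgeR 4.0.16 (R 4.3.3) with TMM scaling and the quasi-likelihood test without a replicate block, and p-values were adjusted by the Benjamini-Hochberg method over all of them. Standard errors were derived from the F statistic. With 2 libraries a group, p-values rest on the spread between these cultures, pooled across genes (biological coefficient of variation 0.0485). Groups that do not overlap are mentioned as description only, since the share of all genes tested that separate in this way was not counted. Replicate pairs differed by more than counting noise (chi-square per degree of freedom 3.59 and 4.27), so each library was counted. The test was first run on simulated counts with 200 changed genes.

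The alternatives were total-count scaling, DESeq2 1.42.0, no filter, edgeR's filterByExpr, limma 3.58.1 on log2(RPKM + 0.1) and on log2(RPKM + 1), a replicate block, leaving out each library, and a fold change limit of 1.5. The members, the list of other lipid genes and the marker lists were chosen with earlier results of these data known. Full values are given for called members, the most abundant member of each role, SREBF1, FASN and SCD, and members under the filter. Of the other lipid genes, SREBF2, INSIG1 and the called gene of each role with the lowest and highest change are named. ACSL4, ACSL6, SCD5, GPAT4, CPT1B and CPT1C were added as paralogs after their values were seen. CYB5R3, CYB5B and FAXDC2 were named, also after their values were seen, to show what the desaturation list holds. Gene positions and overlaps are from GENCODE release 44 on hg38, and promoters are from RefSeq on GRCh38.p14. A marker gene and some promoter stretches are not reported here.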

Additional observations from a re-analysis of the deposited data

How the results depend on the processing

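Of 484 comparisons of a member's log2 fold change with an alternative, 463 kept direction and side of the adjusted p limit, 5 lost the limit (HACD2 and PPARA), 15 gained it and 1 turned sign. The last was ACADVL, which did not pass the test and lay between -0.07 and 0.00 when 1 library was left out. DGAT2, HADHA and PLIN3 passed under both limma settings with negative values, as did AGPAT5 and DGAT1. HADHA, AGPAT5 and DGAT1 also passed in edgeR with total-count scaling, so small falls of these genes depend on the setting. Members lower at the adjusted p limit numbered 24 in the main fit, 27 with total-count scaling and 29 with each limma setting. The median log2 fold change of all genes tested was -0.004 in the main fit, -0.039 with total-count scaling, and -0.068 and -0.059 with limma. Leaving out 1 library left 6 members called lower and 5 higher each time, with 23 to 25 lower and 11 to 13 higher at the adjusted p limit. Without the filter or with filterByExpr, 8 members were called lower, since ACACB and ELOVL7 were then tested. Genes called lower in all also rose, from 1086 in the main fit to 1523 without the filter and 1444 with filterByExpr. With a fold change limit of 1.5, 10 members were called lower, 33 other lipid genes lower and 18 higher, and 2302 genes lower and 2296 higher. With limma, 5 other lipid genes were called higher on log2(RPKM + 0.1) and 4 on log2(RPKM + 1), where 596 genes in all were higher; the cause was not tested. The replicate numbers are shared labels only, the deviations of same-numbered libraries correlated at -0.0228, and the replicate block left 6 members called lower and 5 higher, with 1079 and 1123 genes in all. Low counts, as for CPT1A in control cells and for the 6 members under the filter, limit the precision of those values.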
